A study of Homo sapiens and Mus musculus with 13 samples.

Results

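Metallothioneins are small cysteine-rich proteins that bind zinc, copper and cadmium. The genes described here are the human MT1E, MT1F, MT1G, MT1M, MT1X and MT2A and the mouse Mt1 and Mt2, chosen by name as 8 genes, 6 of 24523 human symbols and 2 of 55228 mouse symbols. Their mRNA was measured by RNA-Seq in 7 libraries of the breast cancer line MDA-MB-231, human cells without estrogen and progesterone receptors, and in mammary tumors of 6 mice. Every cell line carried Cas9 with a guide RNA. Control had a guide against GFP, TRIM11-KD1 and TRIM11-KD2 had TRIM11 guide 1 or 2, KDM5C-KD1 and KDM5C-KD2 had KDM5C guide 1 or 2, and the double knockdowns DKD1 and DKD2 had TRIM11 guide 1 or 2 together with KDM5C guide 2. The cell lines were selected with puromycin after infection, and the sources do not say that they are single clones or that the 2 lines of a knockdown stand for repeated cultures. The mice were 3 Trim11+/+ and 3 Trim11+/- females of 3 months, hybrids of FVB/N-Tg (MMTV-PyVT) 634Mul/J with C57BL/6N. All 6 carried the viral oncogene PyVT, which the MMTV promoter drives in the mammary epithelium, and the Trim11+/- mice lacked exons 2 to 6 of Trim11 on 1 of their alleles. The study asked what TRIM11, a ubiquitin ligase, and KDM5C, a demethylase of histone H3 lysine 4, do to gene expression in these cells. The p-values below measure the spread between these libraries only.

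Metallothionein genes are known for a fast and strong induction by metals. Zinc binds the transcription factor MTF1, which then binds short metal responsive elements in their promoters, and glucocorticoids induce several of the genes as well. The proteins buffer free zinc and copper and take up reactive oxygen. Humans have a cluster of class 1 genes beside a single class 2 gene, MT2A, which is the most abundant form in most tissues, whereas mice have a single gene of each class, Mt1 and Mt2.

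The 6 human genes lie within 75.6 kb of chromosome 16 of hg19, from the start of MT2A at 56642496 to the end of MT1X at 56718108. MT2A (ENSG00000125148.7_6) ends at 56643409, MT1E (ENSG00000169715.15_7) lies from 56659387 to 56661024, MT1M (ENSG00000205364.4_6) from 56666571 to 56667893, MT1F (ENSG00000198417.7_6) from 56691643 to 56694610, and MT1X (ENSG00000187193.9_7) starts at 56716382. MT1G (ENSG00000125144.14_17), from 56700642 to 56701977, is the only one of the 6 on the minus strand. The values below are for whole genes, over all their exons. The coding sequences of these genes are close copies, so reads could be split between them in the counting. In the annotated transcripts, 6.28% of the windows of 50 bases of MT1E, 5.13% of those of MT1F, 8.12% of those of MT1X and 2.81% of those of MT2A occur in another gene of the family, and with windows of 150 bases, the length of 1 read, none of them do. Mt1 and Mt2 share no window of 50 bases with each other or with Mt3 and Mt4.

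MTF1 acts through the promoters of metallothionein genes. Those of MT2A and MT1X are shown because the RefSeq promoters of build GRCh38.p14 held an entry for only these 2 of the 6 human genes. The 250 bases before the transcript start of MT2A are chr16:56608334-56608583 and those of MT1X are chr16:56682220-56682469, both on the plus strand. Capitals mark matches to the metal responsive element letters TGCACNC or TGCGCNC on either strand, where N is any base.
MT2A: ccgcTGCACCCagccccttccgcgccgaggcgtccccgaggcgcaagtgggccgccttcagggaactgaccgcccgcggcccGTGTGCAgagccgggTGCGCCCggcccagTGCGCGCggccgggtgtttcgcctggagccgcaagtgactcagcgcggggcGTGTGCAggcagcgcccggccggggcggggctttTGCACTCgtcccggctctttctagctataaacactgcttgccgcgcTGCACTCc
MT1X: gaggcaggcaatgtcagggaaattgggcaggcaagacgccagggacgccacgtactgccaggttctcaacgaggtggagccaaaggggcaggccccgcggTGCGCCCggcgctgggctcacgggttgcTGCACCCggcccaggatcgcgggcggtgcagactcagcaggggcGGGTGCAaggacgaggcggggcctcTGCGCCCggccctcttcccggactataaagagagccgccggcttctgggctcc
The MT2A window held 7 matches, 5 of them on the strand of the gene, and the MT1X window held 4, of which 3 were on that strand. Of the 35116 promoters in the table, 24.8% held at least 1 match in the same 250 bases, 0.370% at least 4 and 0.0313% at least 7. The match nearest the start of MT2A lies 8 to 2 bases before it, and the match nearest the start of MT1X lies 53 to 47 bases before it. A match is a description of the letters and was not tested as a binding site.

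**Figure D1:**
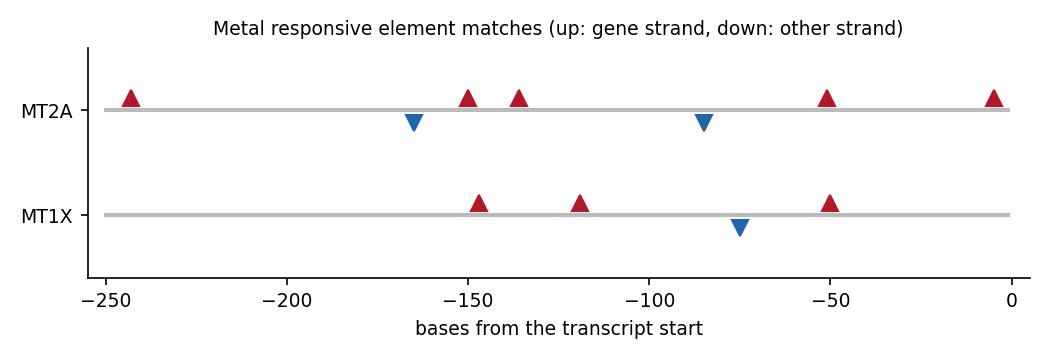
Positions of the metal responsive element matches in the 250 bases before the transcript starts of MT2A and MT1X, in bases from the start, with upward triangles for the strand of the gene and downward triangles for the other strand. MT2A has 7 matches and MT1X 4, and both genes have most of them on the gene strand.

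Expression was given in FPKM, the fragments of a gene divided by its length and by the depth of its library. No read numbers could be recovered for the cell lines, whose depth and counting error are unknown, while the tumor values correspond to whole reads in libraries of 8793199 to 11117125 reads. KDM5C was between 18.8 and 22.7 FPKM in the 4 lines with a KDM5C guide and between 28.4 and 30.3 in the other 3. The libraries labelled TRIM11-KD1 and DKD1 had 13.4 and 16.1 FPKM of TRIM11 and were thus not below Control, which had 12.6. TRIM11-KD2 had 10.6 and DKD2 9.38. These are mRNA values and do not give the level of the protein, by which the paper checked its knockdown lines in western blots. Trim11 was between 35.8 and 39.2 FPKM in the Trim11+/+ tumors and between 22.8 and 24.0 in the Trim11+/- tumors. VIM, CD44, AXL, MSN and CAV1, markers of MDA-MB-231, were between 188 and 1309 FPKM in every line, while ESR1 was at most 0.0234, PGR was listed at 0 and CDH1 was at most 1.98. ERBB2 was between 17.8 and 23.7 FPKM. In the tumors the 5 luminal epithelial markers summed to between 1320 and 1832 FPKM.

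MT2A was the dominant metallothionein of MDA-MB-231. It reached 723 FPKM in Control, against 584 in TRIM11-KD1, 548 in TRIM11-KD2, 660 in KDM5C-KD1, 839 in KDM5C-KD2, 720 in DKD1 and 602 in DKD2. Both TRIM11-KD lines were the lowest of the 7 and KDM5C-KD2 the highest, and the highest value was 1.53 times the lowest. Among all symbols it ranked between 84 and 126 from the top, and it made up between 87.4% and 93.5% of the summed FPKM of the 6 human members. That sum was 780 FPKM in Control. It was 613 ± 17.2 (SD, n = 2 lines) for TRIM11-KD, 846 ± 161 (SD, n = 2) for KDM5C-KD and 726 ± 84.4 (SD, n = 2) for DKD. Control lay between the lines of KDM5C-KD and between those of DKD, and above both lines of TRIM11-KD.

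MT1X, a class 1 gene at the far end of the cluster, was the steadiest besides MT2A. Its FPKM was 33.8 in Control, 24.4 and 23.1 in the TRIM11-KD lines, 23.6 and 24.8 in the KDM5C-KD lines, and 28.1 and 21.6 in the DKD lines. All 6 knockdown lines were below the single Control library, with ratios to Control between 0.640 and 0.831. All of these ratios rest on the same Control value, and the share of all genes with Control highest was not counted. The 3 kinds of knockdown overlapped each other. The SD of log2(FPKM + 1) over the 7 libraries was 0.21 for both MT1X and MT2A, against a median of 0.18 over the 8792 genes that averaged 5 FPKM or more.

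MT1E, another class 1 gene, varied more. Its FPKM was 22.9 in Control, 13.5 and 25.8 in the TRIM11-KD lines, 45.6 and 92.0 in the KDM5C-KD lines, and 37.4 and 37.9 in the DKD lines. The 4 lines with a KDM5C guide were all above the 3 lines without one, and KDM5C-KD2 stood apart as the highest. The SD of log2(FPKM + 1) of MT1E was 0.84, larger than that of 98.6% of the 8792 genes. Within a library MT1E changed relative to its neighbors in the cluster. It was 3.17% of the MT2A level in Control, 2.31% and 4.71% in the TRIM11-KD lines, 6.90% and 11% in the KDM5C-KD lines, and 5.19% and 6.30% in the DKD lines. MT1E was below MT1X in Control and TRIM11-KD1, with ratios of 0.678 and 0.553, and above MT1X in the other 5 libraries, with ratios between 1.12 and 3.71. The order of MT1E and MT1X thus depended on the line, while MT2A was above both in every library.

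MT1F was expressed at a low level. Its FPKM was 0.881 in Control, 2.86 and 3.23 in the TRIM11-KD lines, 2.79 and 3.60 in the KDM5C-KD lines, and 0.490 and 5.51 in the DKD lines. DKD1 and DKD2 were the lowest and the highest library for MT1F and differed by 11.3 times, and only 0.0635% of the genes tested had a DKD2 to DKD1 ratio as high. MT1G and MT1M were listed at 0 in all 7 libraries.

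The table held 10 more rows of the human family, of which MT1B, MT1H, MT1HL1, MT3, MT4, MT1JP and MT1IP were also listed at 0 throughout. The pseudogenes MT1L and MT1DP each had a value above 0 in 1 library, 0.320 in KDM5C-KD2 and 0.153 in TRIM11-KD1. MT1A, the remaining class 1 gene, was at 12.7 FPKM in Control, 16.7 and 4.44 in the TRIM11-KD lines, 37 and 25.8 in the KDM5C-KD lines, and 25.9 and 2.07 in the DKD lines. It was the most variable of the family, with an SD of log2(FPKM + 1) of 1.33, and the lines with TRIM11 guide 2 were the lowest. MT1A was not among the 6 members, and its values are given because it lies between MT1E and MT1F and was expressed.

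**Figure D2:**
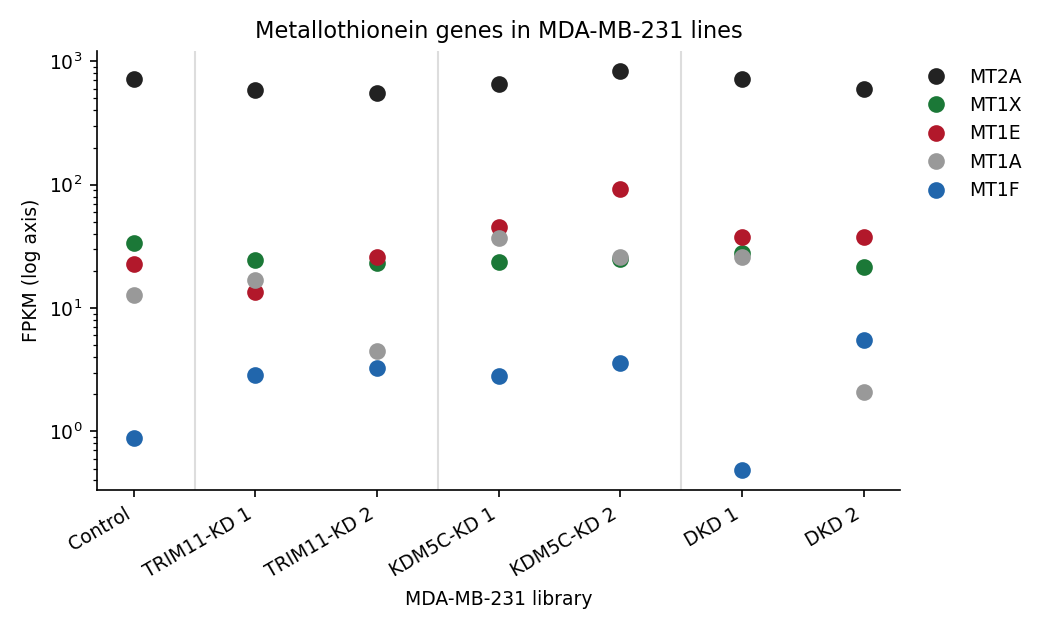
FPKM of MT2A, MT1X, MT1E, MT1A and MT1F in each of the 7 MDA-MB-231 libraries, on a log axis, with 1 point for each gene and library. MT2A lies between 548 and 839 in every library, while MT1E runs from 13.5 in TRIM11-KD1 to 92.0 in KDM5C-KD2 and MT1F from 0.490 in DKD1 to 5.51 in DKD2.

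Control was 1 library, so the differences from it are given as ratios without a test. A gene was counted as higher or lower when each of the paired knockdown lines differed from Control by 1.5 times or more in that direction. Of the 4 human members that averaged 0.5 FPKM or more and were tested, MT1F was higher in TRIM11-KD, at 3.25 and 3.67 times Control, where 3.12% of the 12585 genes above 0 in Control were higher and 2.59% lower. MT1E and MT1F were higher in KDM5C-KD, MT1E at 1.99 and 4.02 times Control and MT1F at 3.17 and 4.09 times, where 5.12% of genes were higher and 3.99% lower. MT1E was higher in DKD, at 1.63 and 1.65 times Control, where 5.59% of genes were higher and 4.89% lower. No member was lower in both lines of any knockdown, and the only ratio of MT2A or MT1X past the fold was that of MT1X in DKD2, at 0.640. MT1F was below 1 FPKM in Control, so all of its ratios rest on that small value. Each knockdown was set against the same Control library.

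**Figure D3:**
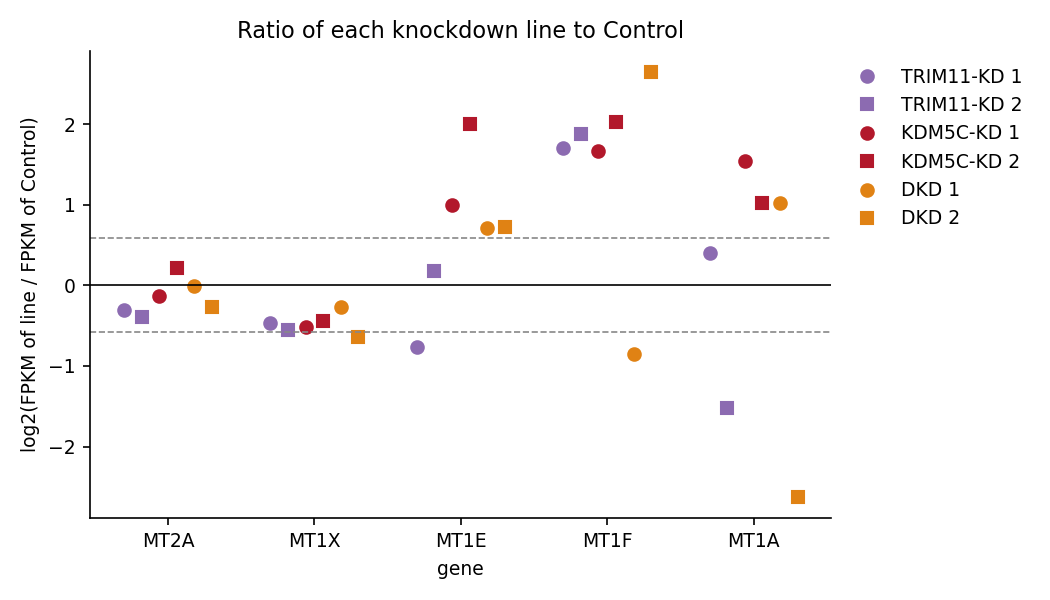
Log2 ratio of FPKM to Control for each of the 6 knockdown lines (circles for line 1, squares for line 2), with dashed lines at 1.5 times above and below Control. MT1E is above the upper line in all 4 lines with a KDM5C guide, MT2A is between the dashed lines in all 6, and MT1F and MT1A have DKD lines on opposite sides of Control.

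The lines that share a guide allow matched comparisons of MT1E. With TRIM11 guide 1, DKD1 was 2.78 times TRIM11-KD1, and only 1.10% of the genes tested had a ratio as high. With TRIM11 guide 2, DKD2 was 1.47 times TRIM11-KD2, and 5.75% of genes had a ratio as high. With KDM5C guide 2, DKD1 and DKD2 were 0.406 and 0.412 times KDM5C-KD2. The 2 KDM5C-KD lines, with different guides, differed by 2.02 times from each other, so the spread between lines of a knockdown was as large as some of these ratios. These are single libraries and the ratios have no replicate error.

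Over all 7 libraries, the 4 with a KDM5C guide were compared with the 3 without one, with the TRIM11 guide as a second term (limma on log2(FPKM + 1), Benjamini-Hochberg adjustment over 12636 genes). MT1E was 53.2 FPKM on average with the guide and 20.7 without, a log2 fold change of 1.17 with a standard error of 0.30 (limma, unadjusted p = 0.00527, adjusted p = 0.383). It was higher in 4 of 4 libraries, without overlap, and its two-sided exact permutation p was 0.0571, the smallest that 4 against 3 libraries allow. KDM5C-KD2, DKD1 and DKD2 share KDM5C guide 2, so these 4 libraries do not stand for 4 independent guides. The permutation test did not include the TRIM11 guide. By the rule of the study, a ratio of at least 1.5 and an unadjusted p under 0.05, MT1E was 1 of 4 members counted, against 3.5% of all genes. Every library with the guide was above every library without it for 5.64% of all genes. After adjustment 0 of 4 members and 0.00791% of all genes passed in limma, and an unadjusted p under 0.05 was found for 1 of 4 members and 1397 of 12636 genes. Without KDM5C-KD2, the library that stood apart, the log2 fold change of MT1E was 0.97 (limma, unadjusted p = 0.00435, adjusted p = 0.468). Without the libraries labelled TRIM11-KD1 and DKD1 it was 1.06 (limma, unadjusted p = 0.0309, adjusted p = 0.764).

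None of the other members tested passed the fold and p rule by the KDM5C guide, and after adjustment no member passed, MT1E included. MT2A had a log2 fold change of 0.15 (standard error 0.13, limma adjusted p = 0.699), MT1X of -0.15 (standard error 0.14, adjusted p = 0.732) and MT1F of 0.23 (standard error 0.53, adjusted p = 0.898). Their exact permutation p-values were 0.343, 0.571 and 0.743. The standard error of MT1F was so wide that a change of its level by 2 times in either direction was not detectable. Without DKD1, in which MT1F was lowest, its log2 fold change was 0.92 and passed the fold and p rule (limma unadjusted p = 0.0015, adjusted p = 0.471). For MT1A the log2 fold change was 0.42 with a standard error of 0.78 (limma adjusted p = 0.871). It was -0.23 without DKD1 and 1.34 without DKD2, where it passed the fold and p rule (limma unadjusted p = 0.0231, adjusted p = 0.515).

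In the same fit, the TRIM11 guide gave log2 fold changes of -0.57 for MT1E (standard error 0.30), -0.25 for MT2A (standard error 0.13), -0.18 for MT1X (standard error 0.14) and 0.19 for MT1F (standard error 0.53). In limma the adjusted p-values of the 4 were 0.522 to 0.919, and their exact permutation p-values between 0.114 and 0.8. MT2A was between 548 and 720 FPKM in the 4 libraries with a TRIM11 guide and between 660 and 839 in the 3 without one. Of the 4 members 0 passed the fold and p rule, 0 passed after adjustment and 0 had an unadjusted p under 0.05 in limma, against 3.93% of all genes by the rule, 0% after adjustment and 1348 genes by unadjusted p. Single libraries decided this, since MT1E passed the fold and p rule without TRIM11-KD2 (log2 fold change -0.75, limma adjusted p = 0.763) and MT1F without DKD1 (0.87, limma adjusted p = 0.494). The effect of the KDM5C guide was also compared between lines with and without a TRIM11 guide, by an interaction term that was chosen after seeing the data. The log2 difference was -0.49 for MT1E (standard error 0.63, limma adjusted p = 0.931), 0.52 for MT1X (standard error 0.24, adjusted p = 0.879), 0.17 for MT2A (standard error 0.26, adjusted p = 0.948) and -1.53 for MT1F (standard error 1.0, adjusted p = 0.898).

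The study asks whether TRIM11 loss turns back what KDM5C loss does, and the 6 knockdown libraries were therefore compared in pairs, in limma with 1 common estimate of the spread. KDM5C-KD had 68.8 ± 32.9 FPKM of MT1E (SD, n = 2 lines) and DKD had 37.6 ± 0.345 (SD, n = 2). The log2 fold change was 0.77 (standard error 0.40, limma unadjusted p = 0.0998, adjusted p = 0.497). Both KDM5C-KD lines were above both DKD lines, as for 22% of all genes. Without KDM5C-KD1 the log2 fold change was 1.27 and without KDM5C-KD2 it was 0.27 (limma adjusted p = 0.223 and 0.931). MT2A (0.18, standard error 0.17), MT1X (-0.03, standard error 0.15) and MT1F (0.42, standard error 0.63) had limma adjusted p-values between 0.699 and 0.959. Of the 4 members 0 passed the fold and p rule, against 6.74% of all genes, 0 passed after adjustment, as did 0% of all genes, and 0 members and 1473 genes had an unadjusted p under 0.05. For MT1F the DKD lines gave opposite results, with a log2 fold change of -0.64 without DKD1 and of 1.49 without DKD2, each past the fold and p rule (limma adjusted p = 0.479 and 0.719).

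MT1E was 19.7 ± 8.75 FPKM (SD, n = 2) in TRIM11-KD. Against it KDM5C-KD had a log2 fold change of 1.74 (standard error 0.40, limma unadjusted p = 0.00444, adjusted p = 0.494), and DKD one of 0.97 (standard error 0.40, limma unadjusted p = 0.0491, adjusted p = 0.707). MT1E was the only 1 of 4 members past the fold and p rule in either comparison, against 5.37% and 3.29% of all genes, and after adjustment 0 of 4 members and 0% of genes passed in both. The DKD comparison is at the edge of the rule, and MT1E left it without TRIM11-KD1, without DKD1, without DKD2, with median ratio scaling, without a trend and without a filter on low values. TRIM11-KD and DKD lines of the same number share a TRIM11 guide. With that number as a block, the log2 fold change of MT1E in DKD against TRIM11-KD was also 0.97 (limma unadjusted p = 0.0102, adjusted p = 0.372). MT2A was 566 ± 25.2 FPKM (SD, n = 2) in TRIM11-KD, below both KDM5C-KD lines and both DKD lines. Its log2 fold changes were 0.39 (standard error 0.17, limma adjusted p = 0.507) and 0.22 (standard error 0.17, adjusted p = 0.772). Of all genes, 22.5% were higher without overlap in KDM5C-KD than in TRIM11-KD and 21.7% in DKD than in TRIM11-KD. MT1X had log2 fold changes of 0.03 and 0.05 in these comparisons, each with a standard error of 0.15, and MT1F of 0.05 and -0.38, each with a standard error of 0.63. For DKD against TRIM11-KD, MT1F passed the fold and p rule at 0.69 without DKD1 and at -1.44 without DKD2 (limma adjusted p = 0.767 and 0.885). The guide comparisons and these pairs use the same libraries and are not independent of each other.

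**Figure D4:**
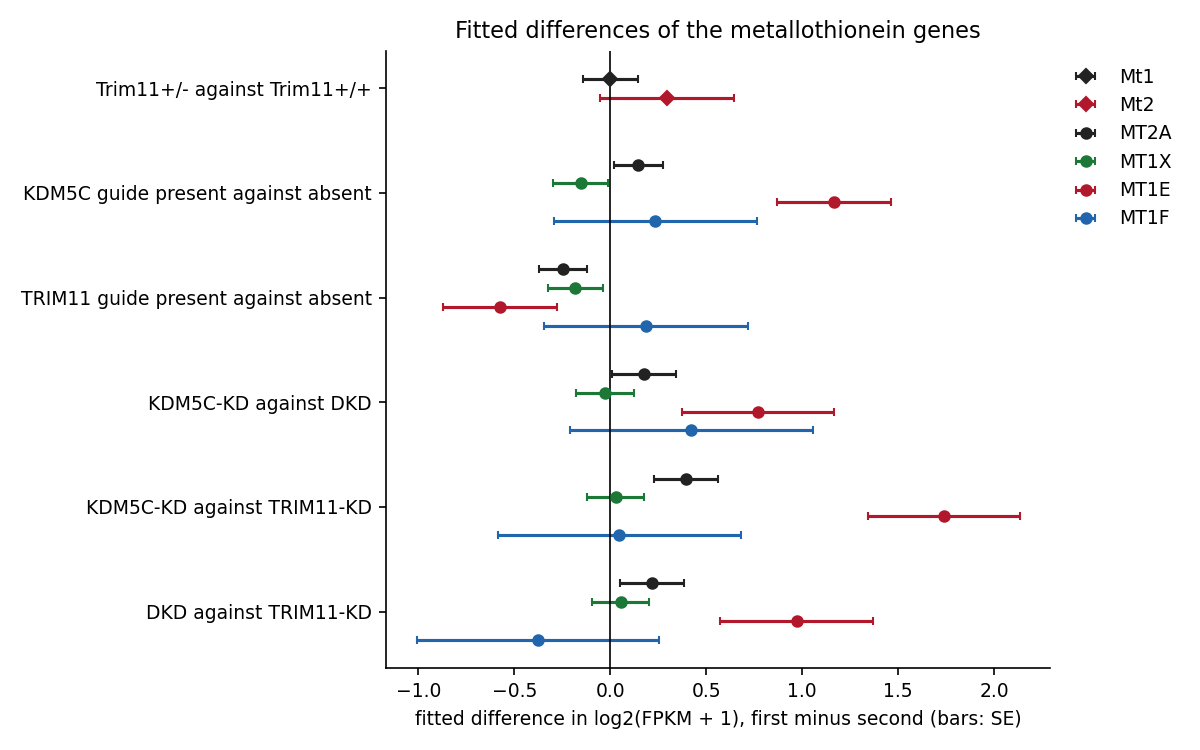
Fitted differences in log2(FPKM + 1) with their standard errors for the 4 human members in 5 comparisons of cell lines and for Mt1 and Mt2 in tumors, first group minus second. MT1E lies at 1.17 for the KDM5C guide and at 1.74 for KDM5C-KD against TRIM11-KD, and MT1X lies between -0.18 and 0.05 in all 5 comparisons of cell lines.

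MTF1, the factor that drives these genes in response to zinc, was at 4.84 FPKM in Control, 4.82 and 5.08 in the TRIM11-KD lines, 4.40 and 6.09 in the KDM5C-KD lines, and 3.36 and 4.15 in the DKD lines. Both DKD lines were the lowest, and MTF1 did not pass the fold and p rule in any of the 5 comparisons, with limma adjusted p-values between 0.482 and 0.926. Among the genes that move zinc, 7 of 10 exporters of the SLC30 family and 11 of 14 importers of the SLC39 family were tested. By the KDM5C guide, where 3.5% of all genes passed the fold and p rule, 0 exporters did, and 1 importer did, SLC39A4, which takes up zinc at the cell surface. SLC39A4 was 34.6 FPKM in Control, 36.7 and 34.4 in TRIM11-KD, 57.1 and 57.2 in KDM5C-KD, and 47.1 and 55.0 in DKD. The 4 lines with a KDM5C guide were above the 3 without one, as for 5.64% of all genes. The log2 fold change of SLC39A4 was 0.59 (standard error 0.10, limma unadjusted p = 0.000433, adjusted p = 0.339). It is named because it passed the rule by this guide in these same libraries, and a link between SLC39A4 and MT1E was not tested. SLC39A7, which releases zinc from the endoplasmic reticulum, was 99.1 and 91.0 FPKM in TRIM11-KD and 51.1 and 72.6 in DKD, a log2 fold change of -0.63 for DKD against TRIM11-KD (standard error 0.18, limma adjusted p = 0.702). The median log2 fold change by the KDM5C guide was 0.08 over the exporters and -0.16 over the importers, beside 0.0015 over all genes.

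Of 10 copper handling genes 9 were tested in the cell lines, and by the KDM5C guide and by the TRIM11 guide 0 of them passed. In KDM5C-KD against TRIM11-KD, where 5.37% of all genes passed, 1 was higher, COMMD1, and 2 were lower, SLC31A2 and ATP7B, a copper exporting pump. COMMD1 was 24.2 FPKM in Control, 13.1 and 12.5 in TRIM11-KD, and 19.1 and 23.6 in KDM5C-KD (log2 fold change 0.69, standard error 0.15, limma adjusted p = 0.494), so it was the TRIM11-KD lines that lay away from Control. SLC31A2 was 21.4 and 17.6 FPKM in TRIM11-KD and 12.9 and 10.8 in KDM5C-KD, and ATP7B was low throughout, at 1.40 and 1.64 FPKM in TRIM11-KD and 0.985 and 0.699 in KDM5C-KD (limma adjusted p = 0.494 and 0.505). Of 11 genes of the response to metals and misfolded proteins 9 were tested, and 1 passed in the 5 comparisons of cell lines. This was GCLM, a subunit of the enzyme that starts glutathione synthesis. It was higher by the TRIM11 guide, where 3.93% of all genes passed (log2 fold change 0.73, standard error 0.23, limma adjusted p = 0.448). GCLM was 11.3 FPKM in Control and 10.5 in KDM5C-KD2, and between 20.1 and 24.7 in the other 5 libraries, KDM5C-KD1 among them.

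Of 9 genes that respond to glucocorticoids 7 were tested in the cell lines. By the KDM5C guide, where 3.5% of all genes passed the fold and p rule, 1 was lower and 0 were higher. The lower gene was the clock gene PER1, with 3.44 FPKM on average in the libraries with the guide and 5.86 in those without (log2 fold change -0.63, standard error 0.15, limma adjusted p = 0.383). In KDM5C-KD against DKD 2 were higher, KLF9 and DUSP1, and 1 was lower, SGK1, where 6.74% of all genes passed. KLF9, a transcription factor, was 4.60 and 10.3 FPKM in KDM5C-KD and 1.89 and 3.55 in DKD (log2 fold change 1.14, standard error 0.37, limma adjusted p = 0.388). DUSP1, a phosphatase of MAP kinases, was 245 and 351 FPKM in KDM5C-KD and 174 and 205 in DKD, and the kinase gene SGK1 was 45.5 and 50 in KDM5C-KD and 73.5 and 74.0 in DKD. PER1 and ERRFI1 were lower by the rule in KDM5C-KD than in TRIM11-KD, where 5.37% of all genes passed. PER1 and KLF9 were lower in DKD than in TRIM11-KD, where 3.29% of all genes passed. ERRFI1, an inhibitor of the EGF receptor, was 192 and 172 FPKM in TRIM11-KD and 118 and 116 in KDM5C-KD (limma adjusted p = 0.494).

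The genes most like a member over the 7 cell line libraries were found by the root mean square difference of log2(FPKM + 1), each profile centred on its own mean, among genes outside the family that averaged 5 FPKM or more and varied at least 0.8 times as much. For MT2A, 4944 genes could be compared and the nearest were TMEM109 (0.04), CYP51A1 (0.04), a row that joins MDP1 and NEDD8 (0.05), TUBA1A (0.05) and MTHFD1 (0.06). For MT1X, 5096 genes could be compared, and SMPD1, PREPL and ATG9A came first, each at 0.07, before the copper chaperone ATOX1 and FOXP4, each at 0.08. For MT1E, 203 genes varied enough to be compared and the nearest were CRABP2 (0.32), BCYRN1 (0.38), NINJ2 (0.40), LSR (0.46) and SNCG (0.48). No gene was as close to MT1E as the nearest genes were to MT2A and MT1X, whose own variation was smaller. With 7 libraries that share cells and guides these are descriptions only.

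In the mouse tumors both Mt1 and Mt2 were expressed, and neither differed between the genotypes beyond the spread between tumors. In mm10, Mt2 (ENSMUSG00000031762.7) lies on chromosome 8 from 94172664 to 94173568 and Mt1 (ENSMUSG00000031765.8) from 94179082 to 94180327, 5.5 kb further along the same strand. Mt1 had an FPKM of 54.5, 58.4 and 56.0 in Trim11+/+ tumors 1 to 3 and 57.0, 67.4 and 46.5 in Trim11+/- tumors 1 to 3. The Trim11+/- tumors held both the highest and the lowest value, and the Trim11+/+ tumors lay between them. Mt1 rested on 622 to 790 reads per tumor, which gave a 95% Wilson interval of 50.7 to 58.6 FPKM in Trim11+/+ tumor 1 and of 42.9 to 50.3 FPKM in Trim11+/- tumor 3. These intervals cover counting error only. The mean was 56.3 ± 1.98 FPKM (SD, n = 3 mice) in Trim11+/+ and 56.9 ± 10.5 (SD, n = 3) in Trim11+/- tumors, with a log2 fold change of 0.00095 (standard error 0.14, limma adjusted p = 0.999, exact permutation p = 0.9).

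Mt2 had an FPKM of 38.1, 63.6 and 56.1 in Trim11+/+ tumors 1 to 3 and 74.5, 90.5 and 37.7 in Trim11+/- tumors 1 to 3. Trim11+/- tumors 1 and 2 were above all Trim11+/+ tumors, and Trim11+/- tumor 3 was the lowest of the 6, next to Trim11+/+ tumor 1. Mt2 rested on 238 to 487 reads, and the intervals of 33.2 to 42.8 FPKM in Trim11+/- tumor 3 and of 82.7 to 99.1 FPKM in Trim11+/- tumor 2 did not meet. The mean was 52.6 ± 13.1 FPKM (SD, n = 3) in Trim11+/+ and 67.6 ± 27.1 (SD, n = 3) in Trim11+/- tumors. The log2 fold change was 0.30 (standard error 0.35, limma adjusted p = 0.880), and the exact permutation p was 0.5, where the smallest that 3 against 3 tumors allow is 0.1. Without Trim11+/- tumor 3 the log2 fold change of Mt2 was 0.66 and passed the fold and p rule (limma unadjusted p = 0.0340, adjusted p = 0.554), and without Trim11+/- tumor 2 it was 0.04. Of the 2 members 0 passed the fold and p rule, against 3.61% of the 17328 genes tested. After adjustment 0 of 2 members and 0.00577% of all genes passed in limma, and 0 of 2 members and 1202 genes had an unadjusted p under 0.05. On the recovered reads limma voom called 0 of the 2 by either rule.

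**Figure D5:**
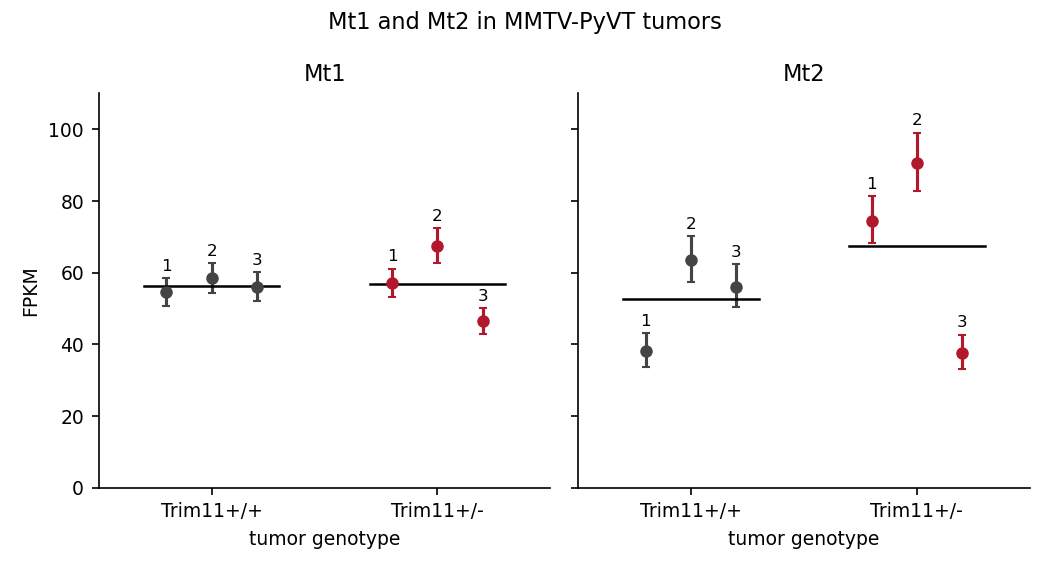
FPKM of Mt1 and Mt2 in each tumor, with 95% Wilson intervals of the read counts as bars, the number of the tumor above each point and the mean of each genotype as a line. Mt1 lies between 46.5 and 67.4 and Mt2 between 37.7 and 90.5, and for both genes Trim11+/- tumor 2 is the highest and Trim11+/- tumor 3 the lowest.

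The levels of both genes depend on the lengths used for FPKM. Mt1 was scaled by 1246 bases, which is its whole span with introns, while its annotated coding transcripts have 549, 633 and 1085 bases, and Mt2 was scaled by 588 bases. In reads Mt1 was above Mt2 in all 6 tumors. In FPKM Mt2 was 0.700, 1.09 and 1.0 times Mt1 in the Trim11+/+ tumors and 1.31, 1.34 and 0.811 times in the Trim11+/- tumors, so which gene was higher changed between tumors. Over the 6 tumors the SD of log2(FPKM + 1) was 0.17 for Mt1, below the median of 0.18 over 9491 genes that averaged 5 FPKM or more, and 0.50 for Mt2, larger than that of 92.9% of these genes. Mt3, known from the brain, had at most 3 reads and Mt4, known from squamous epithelium, at most 1 read in a tumor, with 0 reads in 4 and 5 of the 6 tumors. A count of 0 allows up to 0.262 FPKM of Mt3 and 0.701 FPKM of Mt4 in Trim11+/- tumor 3. In bulk tumors, fewer cells of a type and less RNA per cell cannot be told apart.

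Markers of other cell types also varied between the tumors. The 4 adipocyte markers summed to 14.9, 117 and 28.5 FPKM in Trim11+/+ tumors 1 to 3 and to 83.0, 46.3 and 8.56 FPKM in Trim11+/- tumors 1 to 3. The tumors with the lowest adipocyte sums, Trim11+/- tumor 3 and Trim11+/+ tumor 1, were those with the lowest Mt2, while Trim11+/- tumor 2, with the highest Mt2, had a middle adipocyte sum of 46.3. The 2 endothelial markers were lowest in the same pair of tumors, with sums of 6.59 in Trim11+/- tumor 3 and 8.27 in Trim11+/+ tumor 1, against 11.9 to 12.6 in the other 4. Luminal, basal, fibroblast, macrophage, T cell, neutrophil and erythroid markers did not have this pair lowest. Trim11+/+ tumor 1 had the highest basal and macrophage sums, at 302 and 46.3 FPKM. The 3 basal markers summed to between 119 and 302 FPKM in the Trim11+/+ tumors and between 54.6 and 84.0 in the Trim11+/- tumors, and the 2 erythroid markers to between 32.1 and 40.9 and between 11.3 and 17.9. The sums of the genotypes overlapped for luminal, fibroblast, macrophage, T cell, endothelial and neutrophil markers. The hepatocyte markers Alb and Apoa1, from an organ with high metallothionein, were at most 0.210 FPKM and at 0 in 5 of 6 values in each genotype. The part of other cell types in the levels of Mt1 and Mt2 was not tested.

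Mtf1 was between 3.55 and 4.33 FPKM in the 6 tumors, with a log2 fold change of -0.04 in Trim11+/- tumors (standard error 0.12, limma adjusted p = 0.964). Of the zinc genes, 7 exporters and 12 importers were tested, and 0 of them passed the fold and p rule. Of 9 copper handling genes tested, 1 was higher in Trim11+/- tumors, Slc31a2, a copper transporter of internal membranes. It was 39.3, 39.4 and 54.5 FPKM in the Trim11+/+ tumors and 71.5, 90.3 and 67.2 FPKM in the Trim11+/- tumors (log2 fold change 0.77, standard error 0.17, limma unadjusted p = 0.00346, adjusted p = 0.593). Its values did not overlap between the genotypes, and 1143 of the 17328 genes tested were higher in Trim11+/- tumors without overlap. Of 10 genes of the response to metals and misfolded proteins 0 passed. Of 9 genes that respond to glucocorticoids 2 were higher and 0 lower, Fkbp5, a chaperone of the receptor, and Tsc22d3, where 3.61% of all genes passed in either direction. Fkbp5 was 15.1, 12.2 and 11.1 FPKM in the Trim11+/+ tumors and 18.6, 41.3 and 24.8 FPKM in the Trim11+/- tumors (log2 fold change 1.02, standard error 0.28, limma adjusted p = 0.634). Tsc22d3, a leucine zipper protein of the same response, was 18, 19.6 and 21.9 FPKM in the Trim11+/+ tumors and 43.2, 26.3 and 32.9 FPKM in the Trim11+/- tumors (log2 fold change 0.73, standard error 0.19, limma adjusted p = 0.607). Fkbp5, Tsc22d3 and Slc31a2 are named because they passed the rule by genotype in these same tumors. Trim11+/- tumor 3 was above all Trim11+/+ tumors for each of them and was the lowest of the 6 for Mt1 and Mt2. A link between these genes and Mt1 or Mt2 was not tested. The median log2 fold change over the glucocorticoid list was 0.19, beside -0.0048 over all genes.

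The genes most like Mt1 over the 6 tumors, by the same measure and among 6615 genes, were Gm43401 (0.03), Fbxo9 (0.04), Plxnb2 (0.04), Sft2d3 (0.05) and Btbd6 (0.05). For Mt2, 1061 genes varied enough and the nearest were Slc9a3r2 (0.09), Nck2 (0.10), Sptb (0.11), Hid1 (0.12) and Akr1b10 (0.14).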

How the data were processed

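Poly(A) RNA was sequenced without strand, in paired reads of 150 bases. The authors trimmed the reads, mapped them with HISAT2 to hg19 or mm10, and deposited their FPKM values in a table per species. The methods name Cufflinks for these values, and the submitters' processing notes also list Bowtie 0.12.2 with no role. For 98.7% to 98.8% of the values above 0 of mouse genes with 1 annotation entry, FPKM gave whole reads within 0.01 of a read, from lengths of all exons. Of the rows that share a symbol the one with the highest mean was kept, and 27 human symbols turned into dates were dropped.

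Genes that averaged 0.5 FPKM or more were compared by limma 3.58.1 in R 4.3.3 (lmFit, eBayes with a trend) on log2(FPKM + 1), which understates the change of low genes, with Benjamini-Hochberg adjustment. The fits were tested on simulated data with known changes and the same spread for every gene. That spread was smaller than the SD over the libraries of each of the 6 members tested, most of all MT1E, MT1F and Mt2. It was also below the median SD of the genes that averaged 5 FPKM or more. The simulation thus does not cover genes as variable as the members. Beside an adjusted p under 0.05, the rule of the study was used, a 1.5-fold ratio of mean FPKM in either direction and an unadjusted p under 0.05. Exact permutation tests were two-sided. Other steps used Python 3.11.15, pandas 2.3.3, scipy 1.17.1 and matplotlib 3.10.9. Positions come from GENCODE for hg19 and mm10.

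The members and lists were chosen with earlier results of these data known. Named besides all members and family genes are the 3 genes of each metal list with the largest change past the fold and p rule and the 5 genes most like a member. Alternatives were a pseudocount of 0.1, a minimum mean of 1 FPKM or of any above 0, median ratio scaling, no trend, other fits, a fold of 2, the replicate number as a block (in cell lines without Control) and each library left out. Voom on recovered reads, the interaction term and leaving out TRIM11-KD1 and DKD1 together were added after the data were seen.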

Additional observations from a re-analysis of the deposited data

Results flagged for a closer look

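MT1E in the 4 libraries with a KDM5C guide had 1 library far from the others, KDM5C-KD2 at 92.0 FPKM. In FPKM its gap to the next library was 0.851 of the range of the 4, above the critical value of 0.829. The gap was not examined on the log2 scale of the fits. Of groups drawn from 1 normal population, about 1 in 20 shows such a gap by chance. This group mixes KDM5C-KD and DKD lines, so that rate need not hold here, and 8 groups of 4 libraries were examined. The other 3 libraries, at 37.4, 37.9 and 45.6 FPKM, were still above the 3 libraries without the guide.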

How the results depend on the processing

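After adjustment 0 members passed in each of the 6 limma comparisons, under every alternative run. The log2 fold change of MT1E kept its sign in the 5 cell line comparisons under all alternatives. MT1E passed the fold and p rule in 15 of 15 for the KDM5C guide and in 14 of 14 for KDM5C-KD against TRIM11-KD. Of the 15, those without Control are the same contrast as DKD against TRIM11-KD, where MT1E passed in 8 of 14 alternatives. Without Control and without the block its log2 fold change was 0.97 (limma unadjusted p = 0.0491, adjusted p = 0.707). The cause of the changes below was not tested.

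The number of members past the fold and p rule ranged, with 1 library left out at a time, from 0 to 1 in tumors, from 1 to 2 for the KDM5C guide, from 0 to 1 for the TRIM11 guide and for KDM5C-KD against DKD, and from 0 to 1 for DKD against TRIM11-KD. The last count was also 0 with any mean above 0, with median ratio scaling and without a trend. Without TRIM11-KD1 and DKD1 it was 2 for the KDM5C guide (MT1E, MT1F) and 1 for the TRIM11 guide (MT1F). Against Control it was 1 in KDM5C-KD and 0 in DKD at a fold of 2, and 2 in DKD by the mean of both lines. With 1 line left out it ranged from 1 to 2 in TRIM11-KD, was 2 in KDM5C-KD and ranged from 2 to 3 in DKD.

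Numbers pair no tumors (correlations of deviations between same numbers were -0.33, 0.04 and -0.13). In cell lines these correlations were 0.37 between TRIM11-KD and DKD, which share a TRIM11 guide by number, 0.27 for DKD with KDM5C-KD and 0.087 for TRIM11-KD with KDM5C-KD, and the numbers were not taken as pairs. The fit with the replicate number as a block leaves out Control, and the TRIM11 guide is then the same contrast as KDM5C-KD against DKD. In it 1 member, MT1E, passed the fold and p rule (log2 fold change 0.77 in KDM5C-KD against DKD). Leaving out Control, with or without the block, turned the log2 fold change by the KDM5C guide to -0.38 for MT1F and 0.055 for MT1X, and by the TRIM11 guide to -0.42 and 0.027.

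Low changes turned sign when libraries were left out. Mt1 ranged from -0.13 to 0.14, and voom gave -0.0033. MT1F ranged from -0.38 to 0.92 (KDM5C guide), -0.42 to 0.87 (TRIM11 guide), -0.64 to 1.49 (KDM5C-KD against DKD), -0.092 to 0.19 (KDM5C-KD against TRIM11-KD) and -1.44 to 0.69 (DKD against TRIM11-KD). MT1X ranged, in the same order, from -0.30 to 0.055, -0.32 to 0.027, -0.21 to 0.15, -0.010 to 0.067 and -0.13 to 0.24.

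With any mean above 0 more genes were tested, 29509 against 17328 in tumors and 18168 against 12636 for either guide. For DKD against TRIM11-KD 17981 were tested against 12636. The counts of all genes past the fold and p rule are thus over different totals. They moved by over 1.5 times, from 625 to 970 in tumors, from 442 to 776 (KDM5C guide), from 496 to 808 (TRIM11 guide) and from 416 to 681 (DKD against TRIM11-KD). The TRIM11 guide count was 824 with the block and 1040 without TRIM11-KD1 and DKD1. With 1 library left out the counts ranged from 255 to 724 (KDM5C guide), 288 to 719 (TRIM11 guide), 341 to 1604 (KDM5C-KD against DKD), 276 to 1533 (KDM5C-KD against TRIM11-KD) and 168 to 697 (DKD against TRIM11-KD). Summed levels moved by less than the spread between lines or tumors in 26 of 26 cases. The unknown depth of the cell lines limits what can be said of MT1F and of genes listed at 0.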
